A study of Homo sapiens with 3 samples.

Results

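KCNQ1, KCNQ3, KCNQ5, HCN2, HCN3 and HCN4, 6 genes of voltage-gated cation channels, were described in human neurons labelled as glutamatergic. They were taken by gene symbol from the 78932 genes of the deposited tables, and all 6 were found, each on a single row. The samples were 3 replicates of iCell GlutaNeurons (iGluta), a commercial product of FujiFilm Cellular Dynamics in which neurons are derived from induced pluripotent stem cells. All were untreated, labelled wild type and cultured for 3 weeks, so the series has 1 group and no contrast between conditions. Polyadenylated RNA was sequenced to describe the composition of the culture and its receptors and channels. Other genes of these families are not analysed here.

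KCNQ subunits form potassium channels that open slowly below the spike threshold. In neurons some of them, such as KCNQ3 and KCNQ5, carry the M-current, which damps repetitive firing. It is switched off when receptors coupled to Gq, such as muscarinic receptors, deplete the membrane lipid PIP2. HCN subunits form cation channels that open on hyperpolarisation and carry the h-current, which depolarises the membrane at rest and supports rhythmic firing, and cyclic AMP binds to their intracellular end. Both families assemble as tetramers. The shares of RNA given below do not show which subunits join in a channel or which channels form.

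The labels do not say that the replicates came from separate cultures, so each error is that between these 3 samples and may be technical. Library totals in replicates 1, 2 and 3 were 41079348, 60092991 and 34732725 estimated counts. Replicate 3 stood apart in the share of TPM (a length-corrected share of transcripts) given to the mitochondrial genome, 10.6% against 4.25 and 4.01% in replicates 1 and 2. The 6 neuronal markers STMN2, TUBB3, MAP2, SNAP25, SYN1 and RBFOX3 were all above 1 TPM and summed to 5513, 5420 and 4484 TPM. The glutamatergic markers SLC17A6 and SLC17A7 summed to 92.5, 115 and 179.9 TPM. The GABAergic markers GAD1, GAD2 and SLC32A1 summed to 467, 509 and 245, the larger sum in every library, in cells labelled as glutamatergic. The sums cover 2 and 3 genes, so their sizes are not like for like. GAD1 was the highest of these genes in replicates 1 and 2 (203.4 and 233.9 TPM). In replicate 3 SLC17A6, at 160.1 TPM, exceeded GAD1 (118.1), GAD2 (40.2) and SLC32A1 (86.4). No marker of astrocytes (5 genes), oligodendrocytes (4), microglia (4) or endothelium (3) was above 1 TPM by the test given below. In that test 71.2% of the protein-coding genes were above. Not all of these markers were below: 3 astrocyte, 2 oligodendrocyte and 1 microglial markers were undecided. The undecided astrocyte markers were SLC1A3 (2.10, 0.69 and 0.53 TPM in replicates 1, 2 and 3), GFAP (0.81, 0.80 and 0.86) and AQP4 (0.88, 0.83 and 0.81). MAG, AIF1, PECAM1 and CDH5 were listed at 0 in all 3 libraries. At an unadjusted p under 0.05 none of these 16 genes was above either (limma), and those listed at 0 were not tested.

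RefSeq's table of promoters held 4 of the 6 genes, HCN2, HCN3, HCN4 and KCNQ5. The 250 bases before each annotated start are shown, 5′ to 3′ on the gene's strand, to describe their base composition. Capitals mark the GC box GGGCGG, the core of the binding motif of Sp-family transcription factors, searched on both strands (GGGCGG or CCGCCC), with overlapping matches counted separately.
HCN3 (chr1:155277213-155277462, + strand): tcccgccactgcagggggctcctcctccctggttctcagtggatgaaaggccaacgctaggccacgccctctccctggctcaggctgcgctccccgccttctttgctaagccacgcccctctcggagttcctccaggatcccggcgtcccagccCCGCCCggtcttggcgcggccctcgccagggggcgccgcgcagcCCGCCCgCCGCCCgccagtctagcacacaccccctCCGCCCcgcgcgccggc
HCN2 (chr19:589631-589880, + strand): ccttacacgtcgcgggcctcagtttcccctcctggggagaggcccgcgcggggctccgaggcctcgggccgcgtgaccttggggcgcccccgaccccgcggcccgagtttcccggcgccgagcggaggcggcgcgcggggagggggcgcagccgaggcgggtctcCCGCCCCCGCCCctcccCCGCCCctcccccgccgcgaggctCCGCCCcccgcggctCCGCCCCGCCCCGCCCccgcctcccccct
HCN4 (chr15:73368959-73369208, - strand): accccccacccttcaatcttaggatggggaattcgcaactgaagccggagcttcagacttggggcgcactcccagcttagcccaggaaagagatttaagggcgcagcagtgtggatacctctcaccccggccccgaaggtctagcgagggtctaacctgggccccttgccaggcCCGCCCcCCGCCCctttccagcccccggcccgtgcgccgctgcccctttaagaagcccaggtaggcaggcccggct
KCNQ5 (chr6:72621814-72622063, + strand): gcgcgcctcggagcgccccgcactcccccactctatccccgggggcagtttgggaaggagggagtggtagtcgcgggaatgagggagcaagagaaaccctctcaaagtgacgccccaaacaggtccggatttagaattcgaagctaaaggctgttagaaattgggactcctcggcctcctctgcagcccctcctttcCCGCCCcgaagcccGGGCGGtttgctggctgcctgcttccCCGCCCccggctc

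All 4 windows held GC boxes: 7 in HCN2, 4 in HCN3, 3 in KCNQ5 and 2 in HCN4. Of the 35116 promoters in the table, 42.6% held at least 1 in the same window and 24.3% at least 2. The GC content was 84.0% in HCN2, 74.4% in HCN3, 65.2% in HCN4 and 64.0% in KCNQ5, against a median of 58.0% over the table. None of the 4 held the TATA motif TATAAA on either strand, which 10.7% of the promoters did. These are descriptions of an annotated window, and the data do not show which start was used. A relation of base composition or GC boxes to the levels of the genes was not tested.

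The genes differ in size and position, which matters for how reads were assigned to them. In GRCh38.p14, KCNQ1 lies on chromosome 11 from 2445008 to 2849105, KCNQ3 on chromosome 8 from 132120861 to 132481095 and KCNQ5 on chromosome 6 from 72622064 to 73198853. The HCN genes are shorter: HCN2 lies on chromosome 19 from 589881 to 617159, HCN3 on chromosome 1 from 155277463 to 155289848 and HCN4 on chromosome 15 from 73319859 to 73368958. The tables listed 1 transcript each for HCN2 and HCN4, 4 for HCN3, 7 for KCNQ3, 9 for KCNQ1 and 14 for KCNQ5. Their longest transcripts in GENCODE release 29 ranged from 3246 bases for KCNQ1 and 3408 for HCN2 to 7228 for HCN4 and 11510 for KCNQ3. A long transcript yields more reads per molecule, so levels are compared between genes on TPM, and the order on counts is given beside it.

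On TPM, HCN3 and HCN2 led the 6 genes, HCN4 and KCNQ3 followed at a like level, and KCNQ1 and KCNQ5 were lowest. HCN3 was the highest of the 6, at 66.7, 61.5 and 64.8 TPM in replicates 1, 2 and 3 (64.3 ± 2.63, SD, n = 3), with all libraries close together. HCN2, a subunit with a strong response to cyclic AMP, was at 40.4, 31.6 and 36.4 TPM (36.2 ± 4.42), lowest in replicate 2. HCN4, the main subunit of the cardiac pacemaker and also present in the thalamus, was at 22.6, 26.7 and 19.0 TPM (22.8 ± 3.88). KCNQ3, a neuronal M-channel subunit that works mostly in mixed channels, was at 18.7, 25.5 and 20.8 TPM (21.7 ± 3.49).

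KCNQ1 and KCNQ5 were far lower. KCNQ1, best known from heart and epithelia where it carries a slow repolarising current, was at 3.89, 3.59 and 6.03 TPM (4.50 ± 1.33). KCNQ5, which also contributes to the neuronal M-current, was at 0.87, 0.73 and 2.44 TPM (1.35 ± 0.949). Both were highest in replicate 3, and for KCNQ5 this library alone was above 1 TPM. These are bulk samples, in which fewer cells that express a gene and less RNA per cell cannot be told apart. Among the 17804 protein-coding genes with any TPM, the mean level of HCN3 reached the 82.6th percentile, HCN2 the 71.2nd, HCN4 the 61.1st, KCNQ3 the 60.0th, KCNQ1 the 36.5th and KCNQ5 the 26.7th.

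**Figure D1:**
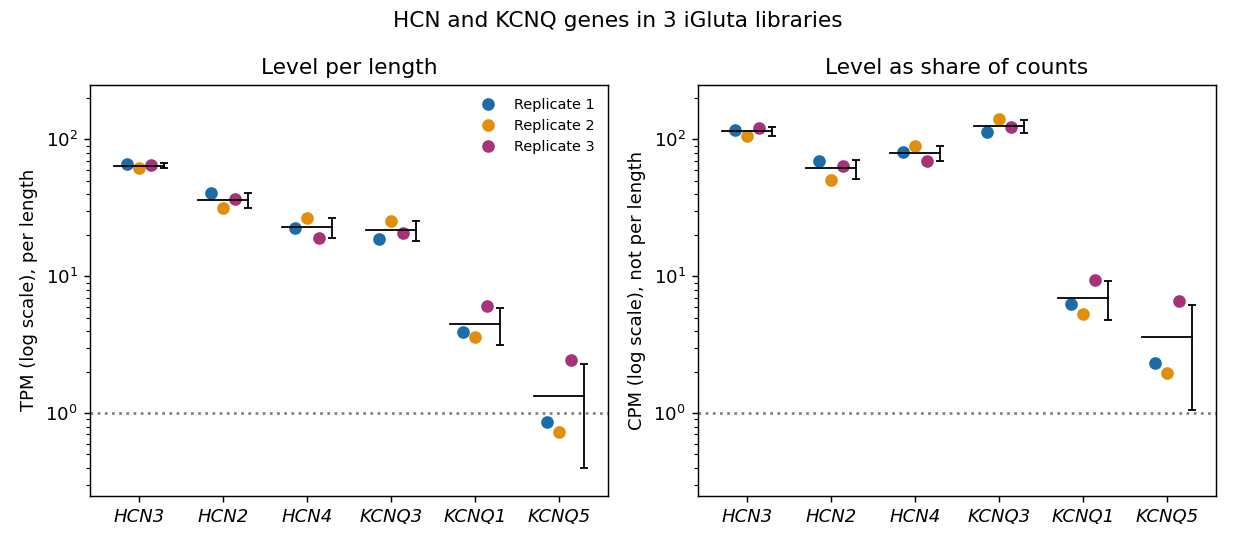
Level of each gene in the 3 libraries, as TPM (left, per length) and as CPM, counts scaled by the library total (right, not per length), both on log axes. Points are libraries, black lines the mean, error bars 1 SD (n = 3) and the dotted line a level of 1. HCN3 leads on TPM at 64.3 on average, KCNQ3 moves up beside it on CPM, and KCNQ5 has 1 library well above the other 2.

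The mean of every gene was then set against a bar of 1 TPM, on log2(TPM + 0.1), in a limma fit across all 38992 genes with any TPM. Of the 6 genes 5 were above the bar and none was below it. In the same fit 40.6% of all genes tested and 71.2% of the protein-coding genes were above, and 45.1% and 19.9% were below. The log2 difference from the bar was 5.87 ± 0.0772 (SE) for HCN3, with an adjusted p of 1.41e-10 (limma, Benjamini-Hochberg). It was 2.03 ± 0.20 for KCNQ1, the lowest of the 5 genes called, with an adjusted p of 3.27e-05 (limma). KCNQ5 was undecided at 0.21 ± 0.394 (adjusted p = 0.634, limma), and its mean was 0.80 TPM without replicate 3 against 1.59 and 1.66 without replicate 1 or 2. With the bar at 0.5 TPM KCNQ5 was above as well (adjusted p = 0.0353, limma).

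In the order of levels some neighbours were not separated. HCN3 exceeded HCN2 by 0.84 ± 0.12 on the log2 TPM scale (SD, n = 3; 0.72, 0.96 and 0.83 in replicates 1, 2 and 3), a 1.78-fold difference. It exceeded HCN4 by 1.51 ± 0.29, with 1.56, 1.20 and 1.76 in the 3 libraries, but on CPM the difference was 0.53 ± 0.28, within 2 SD of 0. HCN2 was above HCN4 in 3 of 3 libraries, but the differences of 0.84, 0.24 and 0.94 gave a mean of 0.67 ± 0.38, under 2 SD from 0, and it was 0.89 without replicate 2. HCN4 and KCNQ3 did not keep an order, since HCN4 was higher in 2 of 3 libraries and the mean difference was 0.07 ± 0.20.

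Among the KCNQ genes the differences were larger. KCNQ3 exceeded KCNQ1 by 2.27 ± 0.51 (2.24, 2.79 and 1.77 in replicates 1, 2 and 3) and KCNQ5 by 4.09 ± 0.97 (4.28, 4.95 and 3.04), both on the log2 TPM scale. KCNQ1 exceeded KCNQ5 by 1.82 ± 0.48 (2.04, 2.15 and 1.27). All 3 of these differences were smallest in replicate 3. Summed, HCN2, HCN3 and HCN4 reached 129.7, 119.8 and 120.2 TPM and KCNQ1, KCNQ3 and KCNQ5 23.5, 29.8 and 29.3 TPM, a log2 ratio of 2.17 ± 0.26. Other genes of the 2 families are left out of these sums, so the ratio is not one between whole families. On CPM, which is not per length, that ratio was 0.92 ± 0.22, KCNQ3 over KCNQ1 was 4.18 ± 0.51 and KCNQ3 over KCNQ5 was 5.28 ± 0.96. Of the 7 ratios compared on TPM, 6 had the same sign in every library and a mean over 2 SD from 0, and HCN3 over HCN4 did not pass on CPM. The exact 2-sided sign-flip permutation p was 0.25 for each ratio before and after Benjamini-Hochberg adjustment over the 7, which is the smallest that 3 libraries allow.

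As shares of the 3 HCN genes summed, HCN3 made up 51.4, 51.3 and 53.9% of TPM in replicates 1, 2 and 3 (52.2 ± 1.47%). HCN2 made up 31.2, 26.4 and 30.3% (29.3 ± 2.55%) and HCN4 17.4, 22.3 and 15.8% (18.5 ± 3.39%). Replicate 2 had the lowest share of HCN2 and the highest of HCN4, while the share of HCN3 moved little. Of the 3 KCNQ genes summed, KCNQ3 made up 79.7, 85.5 and 71.0% (78.8 ± 7.28%), KCNQ1 16.6, 12.04 and 20.6% (16.4 ± 4.29%) and KCNQ5 3.71, 2.45 and 8.34% (4.83 ± 3.10%). KCNQ3 had the largest share of these 3 genes in every library. The mean share of KCNQ5 was 3.08% without replicate 3. These shares hold only among the genes named.

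**Figure D2:**
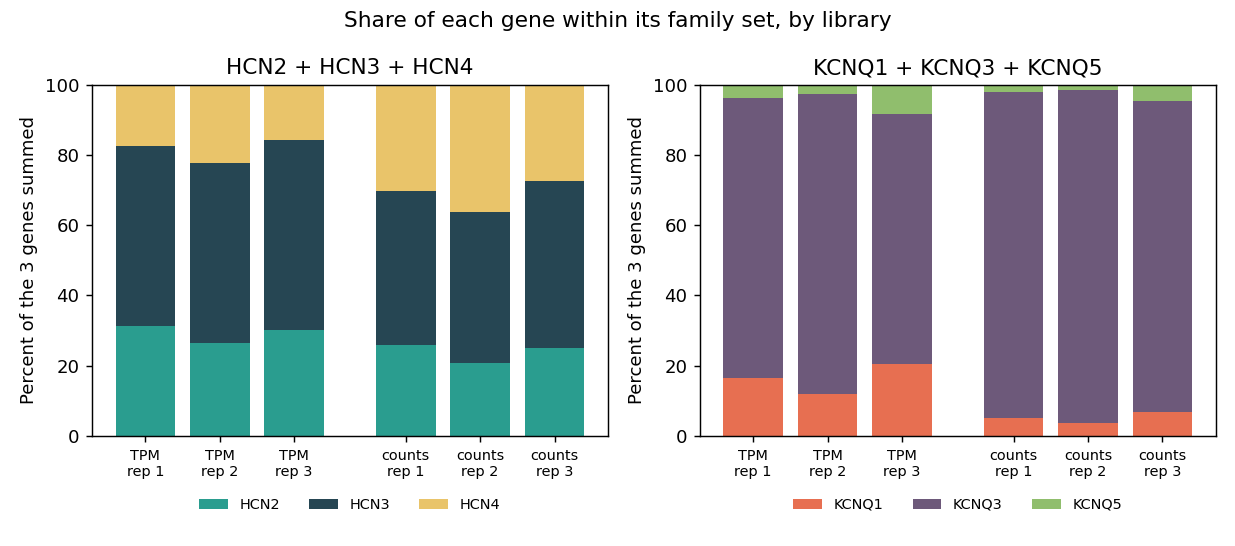
Percent of each gene within HCN2, HCN3 and HCN4 summed (left) and within KCNQ1, KCNQ3 and KCNQ5 summed (right), for replicates 1 to 3, on TPM and on estimated counts. HCN3 keeps the largest HCN share on both scales (52.2% of TPM and 44.8% of counts on average), whereas HCN2 and HCN4 change places.

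The order depended on whether length was taken into account. HCN4 was counted with 3337, 5350 and 2408 estimated counts in replicates 1, 2 and 3, and HCN2 with 2869, 3038 and 2214. HCN4 therefore had the higher count in every library although HCN2 had the higher TPM, and its share of the HCN counts was 31.3 ± 4.60% against 23.9 ± 2.86% for HCN2. KCNQ3 had 4620, 8458 and 4276 counts and HCN3 4853, 6339 and 4186, so on CPM HCN3 was ahead in 1 of 3 libraries. KCNQ1 was counted with 257, 317 and 328 and KCNQ5 with 95, 119 and 228. Counts divided by TPM give the effective length that RSEM used, up to a factor per library. Set against HCN2, this length was 3.44 ± 0.051 for KCNQ3, 2.08 ± 0.002 for HCN4, 1.59 ± 0.091 for KCNQ5, 1.05 ± 0.025 for HCN3 and 0.915 ± 0.019 for KCNQ1 (mean ± SD, n = 3). For KCNQ5 it was 1.54, 1.70 and 1.54 in replicates 1, 2 and 3, highest in replicate 2, where the TPM of 0.73 rests on 119 counts.

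With all 3 libraries, KCNQ1 and KCNQ5 varied most among the 6 genes, and this rested on replicate 3. On CPM scaled by edgeR's TMM method the log2 range from the lowest to the highest library was 0.23 for HCN3, 0.32 for HCN4, 0.34 for KCNQ3 and 0.45 for HCN2, beside a median of 0.34 over 19089 genes. It was 0.87 for KCNQ1 and 1.72 for KCNQ5, at the 88.5th and 98.6th percentile of those genes. The scaled CPM of KCNQ5 was 2.28, 1.97 and 6.72 and that of KCNQ1 6.17, 5.25 and 9.66 in replicates 1, 2 and 3. Replicate 3 was the highest library for both, and without it the log2 range was 0.20 for KCNQ5 and 0.23 for KCNQ1. In that setting HCN2 (0.45) and KCNQ3 (0.34) had the widest ranges of the 6 genes, HCN3 and HCN4 had 0.15 each, and the median over all genes was 0.18. The biological coefficient of variation from edgeR was 0.432 for KCNQ5 and 0.258 for KCNQ1, against 0.116 to 0.143 for the other 4 genes and 0.188 in common over all genes.

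**Figure D3:**
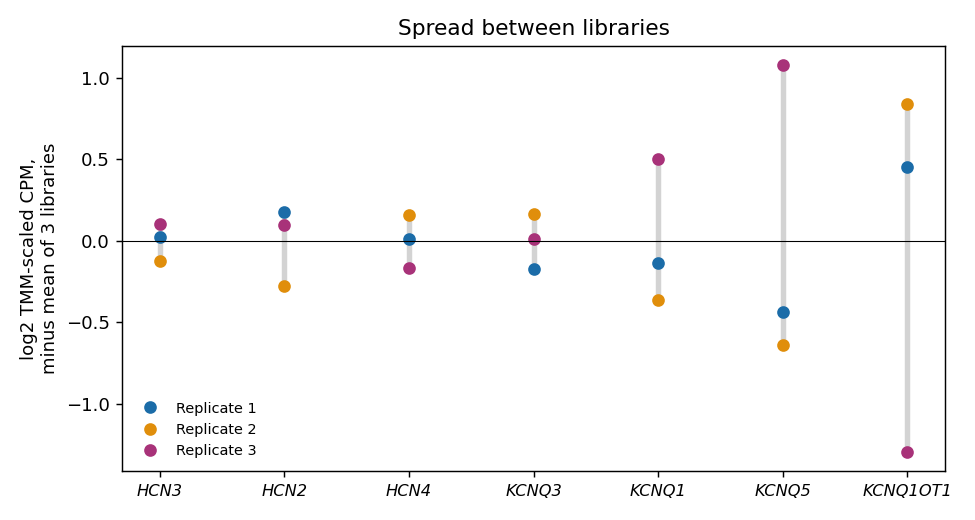
Log2 TMM-scaled CPM of each gene in each library, minus its mean over the 3 libraries, for the 6 channel genes and the antisense RNA KCNQ1OT1. Points are libraries and grey bars the range. Replicate 3 is the highest library for KCNQ1 and KCNQ5 and the lowest for KCNQ1OT1, whose range is 2.13.

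Markers of other cells were looked at because KCNQ1 and HCN4 are also known outside the brain. Of the 5 cardiac markers 2 were above 1 TPM, beside 71.2% of the protein-coding genes. These were MYH7 at 4.51, 4.74 and 4.19 TPM in replicates 1, 2 and 3 and TNNI3 at 2.92, 3.10 and 3.17. The list summed to 7.98, 8.29 and 7.71 TPM. The other 3 cardiac markers were below the bar, beside 19.9% of the protein-coding genes. TNNT2 and MYH6 were at 0.10 TPM or less in every library. Of the 4 epithelial markers KRT8, KRT18 and EPCAM were above the bar, a share near that 71.2%. CDH1 was below it at 0.33 to 0.40 TPM. The epithelial list summed to 115, 114.6 and 254 TPM in replicates 1, 2 and 3. Of these markers KRT8 was at 25.9, 24.4 and 115.3 TPM. The epithelial sum, the glutamatergic sum and the mitochondrial share were thus highest in replicate 3, as KCNQ1 and KCNQ5 were, and the GABAergic sum was lowest there. The part of these differences in the KCNQ1 and KCNQ5 values was not tested.

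KCNQ1, KCNQ5, HCN2 and HCN3 were each lowest in replicate 2. The HCN2 transcript has a GC content of 70.8%, the highest of the 6, against 45.5% for KCNQ5, 47.5% for KCNQ3, 58.0% for HCN3 and 61.8% for both KCNQ1 and HCN4. On log2 CPM HCN2 stood at -0.40 in replicate 2 relative to the mean of the other 2 libraries, HCN3 at -0.18, KCNQ1 at -0.54 and KCNQ5, of the lowest GC content, at -0.95. KCNQ3 and HCN4 went the other way, at 0.26 and 0.25, although HCN4 has the GC content of KCNQ1. The 479 protein-coding genes with a mean of at least 1 TPM and a GC content of at least 65% had a median of -0.22 in that library, and the 12848 genes under 65% had 0.01. The limit of 65% was chosen after values were seen, and the part of base composition in these values was not tested.

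Genes that overlap the members share their genomic sequence, and no source used here gives the strand setting of the counting, although the libraries were strand-specific. KCNQ1OT1, an imprinted noncoding RNA known to silence neighbouring genes on the paternal chromosome, runs antisense inside KCNQ1 on chromosome 11 from 2608328 to 2699994. It was counted with 295, 559 and 69 estimated counts in replicates 1, 2 and 3, which is 1.78, 1.77 and 0.35 TPM, lowest in the library where KCNQ1 was highest. CDKN1C, a neighbour regulated by the same imprinted domain and chosen after its values were seen, was at 59.0, 52.0 and 48.0 TPM, a 1.23-fold range against 5.09-fold for KCNQ1OT1. KCNQ1-AS1, antisense to the end of KCNQ1, had 3, 4 and 0 counts. KCNQ5-AS1 had 0, 3 and 0 counts and KCNQ5-DT, a divergent transcript at the start of KCNQ5, had 1, 6 and 9. HCN3 overlaps the pyruvate kinase gene PKLR at its 3′ end over 556 bases, and PKLR was at 0.08, 0.18 and 0.14 TPM. The counts of HCN2 and HCN3 were not whole numbers in any of the 3 libraries (tolerance 0.005), so some of their reads were divided with other genes. The same held for KCNQ5 in replicates 2 and 3 (118.84 and 227.76) and for KCNQ1 in replicate 2 (316.72). The counts of KCNQ3 and HCN4 were whole in all.

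Among the beta subunits that modify KCNQ1 and related channels, transcripts were scarce. None of the 5 KCNE genes was above 1 TPM (limma, adjusted p under 0.05), beside 71.2% of the protein-coding genes. None was above at an unadjusted p under 0.05 either (limma), and KCNE3, without a count, was not tested. With a pseudocount of 0.01, a minimum mean of 0.1 TPM or TPM without the mitochondrial genome, 1 was above, which was KCNE2. This gene, which partners both KCNQ1 and HCN channels in expression systems, was the highest at 1.93, 1.36 and 1.42 TPM (1.57 ± 0.313) and undecided (adjusted p = 0.0756, limma). KCNE5 was undecided at 0.773 ± 0.362 TPM. KCNE1, the partner of KCNQ1 in the heart, was below the bar at 0.273 ± 0.103 TPM, and KCNE4 was below it at 0.217 ± 0.0702. KCNE3 was not counted in any library, and a count of 0 permits a level of up to 0.073, 0.0499 and 0.0864 CPM in replicates 1, 2 and 3.

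The listed genes that hold and regulate M-channels were expressed throughout, in a list chosen with earlier results of these data known. All 10 KCNQ partners and regulators were above 1 TPM, beside 71.2% of the protein-coding genes. Their median was 99.2 TPM beside 12.5 over the protein-coding genes tested, and the lowest, AKAP5, was at 4.70 ± 1.12. CALM3 at 1488 ± 96.0 TPM and CALM2 at 1483 ± 47.3 led the list. Both encode calmodulin, which is bound to KCNQ subunits and needed for their traffic to the membrane. Of the 15 genes of the Gq and PIP2 pathway 12 were above, 2 were below and 1 was undecided, beside 71.2% of the protein-coding genes above the bar, and the median was 10.6 TPM. That list was led by the lipid kinase gene PI4KA (123.3 ± 18.1 TPM), which makes the precursor of PIP2, and by the Gq-class genes GNAQ (75.3 ± 16.6) and GNA11 (57.8 ± 5.26).

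Of 9 HCN partners 7 were above 1 TPM and 2 were undecided, beside the same 71.2%, with a median of 36.4 TPM. NSF, a general membrane fusion ATPase, was at 185 ± 16.2 TPM, SRC, a kinase that phosphorylates HCN subunits, at 86.2 ± 2.12 and FLNA, an actin cross-linker, at 69.7 ± 3.98. PEX5L, which encodes TRIP8b, the dedicated auxiliary subunit of neuronal HCN channels, was much lower at 4.99, 5.28 and 4.60 TPM and was chosen after its values were seen. Of 10 adenylyl cyclases, which make the cyclic AMP that binds HCN channels, 8 were above and 2 below, beside that same share, with a median of 22.8 TPM. For the Gq and PIP2 pathway, the HCN partners and the adenylyl cyclases the share above the bar was near that of all protein-coding genes. ADCY5 (60.9 ± 3.04 TPM), ADCY2 (54.3 ± 9.22) and ADCY3 (40.03 ± 3.97) were the highest of the adenylyl cyclases.

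**Figure D4:**
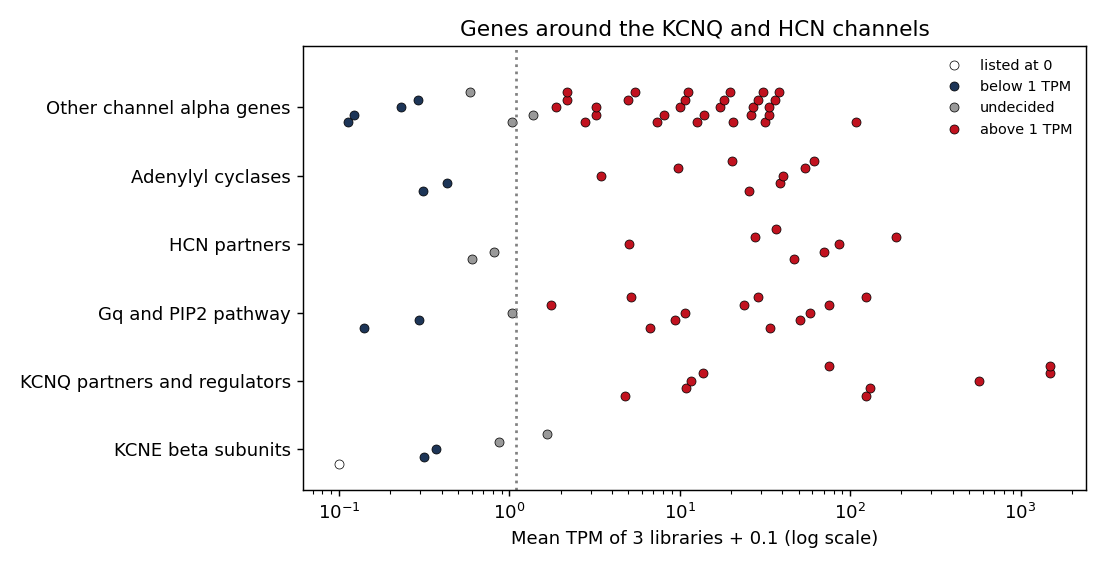
Mean TPM over 3 libraries plus 0.1 (log axis) of every gene in 6 lists, coloured by its call against 1 TPM (dotted line, drawn with the same 0.1 added). The vertical position within a list has no meaning. The KCNE genes lie at or near the bar or under it, and all 10 KCNQ partners and regulators lie above.

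The 6 genes had means from 1.35 to 64.3 TPM, whereas the other channel genes listed reached down to 0.0133 TPM (CNGA2). Only KCNH2 had a higher mean than HCN3, and KCNQ5 lay near the bar. Of 36 other channel genes 29 were above 1 TPM, 4 were below and 3 were undecided, beside the 71.2% of protein-coding genes above the bar, and their median was 10.3 TPM against 12.5 for protein-coding genes. KCNH2, the gene of the hERG potassium channel, was at 109 ± 7.15 TPM, above HCN3 in every library, followed by KCNMA1 (38.0 ± 5.06) and KCNA6 (36.02 ± 3.95), which both lie below HCN3 and close to HCN2. Likeness was measured as the Euclidean distance of log2(TPM + 0.1) over the 3 libraries, in which level counts for more than pattern. The nearest of the 36 genes to HCN2 was CNGA3 (distance 0.331; 32.5, 33.2 and 34.6 TPM), a cyclic nucleotide-gated channel of cones. The nearest to KCNQ3 was KCND3 (0.363; 18.5, 23.8 and 16.3 TPM) and to KCNQ1 KCNH4 (0.423; 4.68, 4.44 and 5.44 TPM). KCNQ5 and HCN3 had no close neighbour: KCNH6 was nearest to KCNQ5 at 1.12 and KCNH2 to HCN3 at 1.32.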

How the data were processed

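The authors deposited estimated counts and TPM per gene, with 1 column for each sample. They used RSEM and the build GRCh38.p14, per the submitters' processing notes; RSEM's version, the aligner, annotation release, filters and strand setting are not given in these sources. Per the labels' protocols, strand-specific libraries from polyadenylated RNA were sequenced as paired reads of 151 bp. The deposited TPM values are shares of a fixed total, so a transcript that takes more lowers the others. A floor of 3 counts covers counting error only.

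Levels were tested against 1 TPM with limma 3.58.1 on log2(TPM + 0.1) (intercept-only, 2-sided, eBayes with trend), adjusted by Benjamini-Hochberg over 38992 genes, with calls at an adjusted p under 0.05. The added 0.1 shrinks differences between low levels. Ratios used the same pseudocount. The deposited estimated counts, rounded to whole numbers, gave the spread with edgeR 4.0.16 (TMM, filterByExpr, 19089 genes). Chi-square per degree of freedom between libraries was at least 27.9, so none was a duplicate. These steps were also tested on simulated data. Promoters came from RefSeq on GRCh38.p14, transcript lengths and GC content from GENCODE release 29.

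Named genes were the 6 members, the 3 highest genes of each list (all of lists of up to 5), the nearest channel gene to each member, and overlapping genes; some are not reported here. Members and lists were chosen with earlier results of these data known. Alternatives were other pseudocounts, filters, bars and scalings (DESeq2 1.42.0 size factors among them), CPM in place of TPM, and leaving out each replicate.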

Additional observations from a re-analysis of the deposited data

How the results depend on the processing

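Of the 6 genes 5 stayed above 1 TPM with another pseudocount, filter or scaling and without each replicate, and 6 were above with a bar of 0.5 TPM or on CPM against 1 CPM. Ratios and shares moved mainly when length was left out. On CPM the log2 ratio of HCN3 over HCN4 was 0.53, within 2 SD of 0, and that of HCN2 over HCN4, not called on TPM, was -0.38. The last was 0.89, over 2 SD from 0, without replicate 2, and ranged from 0.54 to 0.89 over the replicates left out. On estimated counts the mean shares were 5.17% for KCNQ1, 92.2% for KCNQ3, 23.9% for HCN2, 44.8% for HCN3 and 31.3% for HCN4; counts are not divided by transcript length, by construction. The median log2 range of the 6 genes between libraries was 0.39, beside 0.34 over all genes, and 0.39 with DESeq2 size factors. It was 0.35, 0.18 and 0.21 without replicate 1, 2 or 3, beside 0.23, 0.22 and 0.18 over all genes. A range over fewer libraries is mostly narrower by construction. In the 6 lists around the channels 66 of 85 genes were above 1 TPM, beside 71.2% of the protein-coding genes. Under the alternatives 63 to 67 were above. Over all genes the number above was 15837, and 15234 to 16008 under the same alternatives. KCNE2 passed in 3 of the alternatives, which made 1 KCNE gene above (pseudocount 0.01, a minimum mean of 0.1 TPM, and TPM without the mitochondrial genome). No paired analysis was possible because the series has 1 group. Of values this low, that of KCNQ5 is limited by 95 to 228 counts and by 3 libraries.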
